A study of Mus musculus with 12 samples.

Results

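The immune gene profile of vehicle-treated mammary tumors (model K14-Cre;Brca1f/f;Trp53f/f) was described from nanoString nCounter data, with no comparison to a treatment. The members are the 3 tumors that the sample titles name as Vehicle, numbered 1269, 1529 and 1536, of 12 tumors in the series, and the 750 genes measured in each. In this model Cre recombinase is driven by the keratin 14 promoter, so that keratin 14-positive epithelial cells lose Brca1 and p53, while stromal, vascular and immune cells of the recipient mouse keep both genes. Tumor chunks were implanted into mammary fat pads of female FVB/129P2 mice, a syngeneic host, and mice were randomized when tumors measured 150 to 300 mm3. The vehicle tumors were not left untouched, since the mice received intraperitoneal DMSO in saline and the tumor received 1 intratumoral injection of 40 μl saline on the first day. The tumors were collected at 3 days and snap-frozen, and 100 ng of RNA from a chunk was hybridized. The other 9 tumors came from mice given olaparib (50 mg/kg daily), ADU-S100 (50 μg into the tumor), or both, and are used here only to see how far the order of genes, their level classes and the spread of the varying genes are shared. The vehicle tumor numbers begin with 12 (1269) or 15 (1529 and 1536), a difference that no label explains.

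A mammary carcinoma is a mixed tissue. Carcinoma cells are held together by cadherins and integrins, fibroblasts deposit collagen and fibronectin, endothelium carries blood, and macrophages are commonly the most frequent leukocytes, while T cells and natural killer cells recognize peptides on MHC molecules or the absence of such molecules. BRCA1-deficient triple-negative tumors accumulate DNA damage, and DNA fragments in the cytosol can be sensed by cGAS and STING, which induces type I interferon and, through STAT proteins and interferon regulatory factors, a large set of interferon-stimulated genes. The panel reads all of these compartments in 1 extract, so fewer cells of a type and less RNA per cell cannot be told apart.

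The authors deposited normalized mRNA counts, a linear signal. In each tumor nearly all values were whole multiples of the value of 1 count, which was 0.682 in tumor 1269, 1.49 in tumor 1529 and 0.693 in tumor 1536. The recovered totals were 1519471, 632152 and 1048331 counts. Near background means at most 20 recovered counts in each of the 3 tumors, abundant means a mean of at least 1000, moderate a mean from 100 to under 1000, and low covers the rest. Because a count was worth more in tumor 1529, genes near background look highest there: their median values were 6.14, 11.9 and 6.93 in tumors 1269, 1529 and 1536, but their median counts were 9, 8 and 10. All triplets of values below are in that order of tumors, and values after ± are SD with n = 3. Each gene is read by its own probe, so a level does not depend on transcript length, but probes capture with different efficiency and the order of genes is approximate.

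By these limits 160 genes (21.3%) were abundant, 266 (35.5%) moderate, 200 (26.7%) low and 124 (16.5%) near background. The abundant genes held 87.6% of the summed values, and the genes near background 0.124%. The median gene had a mean of 155. Between pairs of tumors, Spearman's correlation across the 750 genes was 0.920 for 1269 and 1529, 0.939 for 1269 and 1536, and 0.960 for 1529 and 1536, a description in which genes are not independent replicates.

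**Figure D1:**
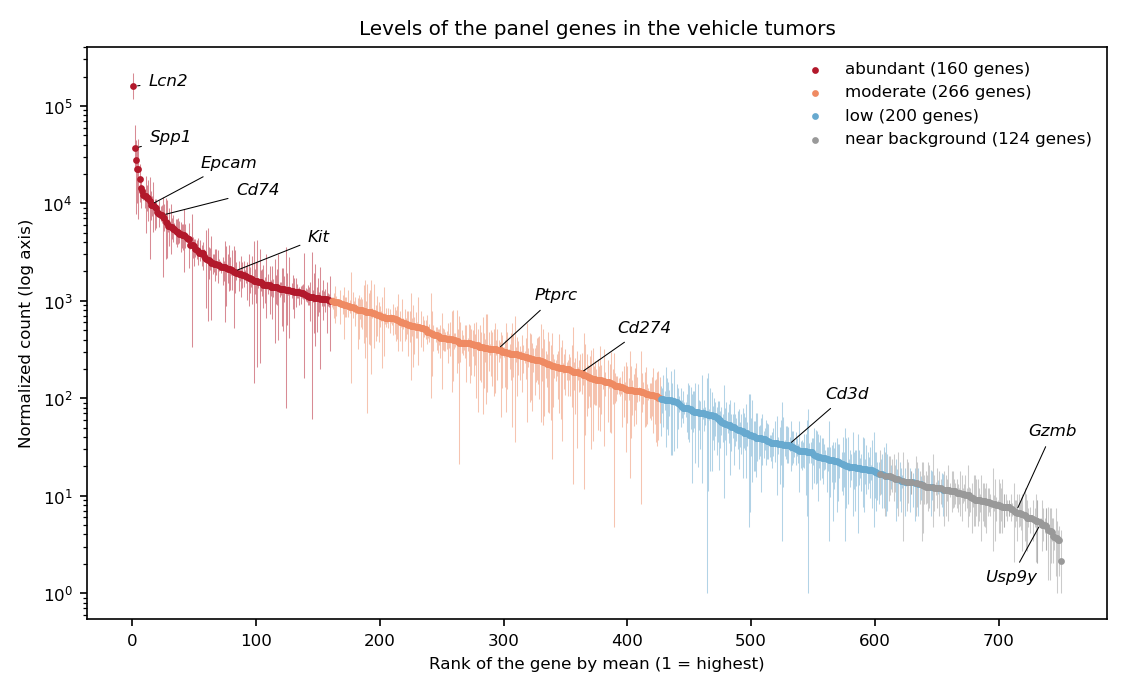
Mean normalized count of each of the 750 panel genes over the 3 vehicle tumors (log axis) against its rank, colored by level class, with vertical lines from the lowest to the highest tumor. The levels ran from Lcn2 at 158642 down to Klra7 at 2.15, with the leukocyte gene Ptprc in the middle of the ranking and Gzmb near background.

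The ranking was led by Lcn2, which encodes lipocalin 2, an iron-siderophore binding protein made by neutrophils and by inflamed or malignant epithelium. It measured 217625 in tumor 1269, 118171 in tumor 1529 and 140129 in tumor 1536. Lcn2 alone took 21.0% of all counts in tumor 1269 (95% Wilson interval 20.9 to 21.1), 12.6% in tumor 1529 (12.5 to 12.7) and 19.3% in tumor 1536 (19.2 to 19.4), intervals that cover counting error only. Spp1, the secreted phosphoprotein osteopontin, followed with 63717, 23347 and 23035.

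Other genes among the 25 with the highest means came from a few compartments. Matrix and mesenchymal genes were Col1a1, Col3a1, Fn1, the integrin beta chain Itgb1 and the intermediate filament gene Vim, at 14310.3 ± 4623. Epithelial adhesion genes were Itga6 and Epcam. Antigen presentation gave H2-D1, H2-K1 and Cd74, and interferon-inducible membrane proteins gave Ifitm2. The tetraspanins Cd81 (17617 ± 7577), Cd9 (9552 ± 6098) and Cd63 (7952 ± 426), the lysosomal protein Lamp1, the transferrin receptor Tfrc (11846 ± 2604), the secretory pathway factor Xbp1, the cytokine Mif, the acidic nuclear phosphoprotein Anp32b, the amyloid precursor App, and the transcription factor Cebpb are expressed by many cell types. Lyz2, lysozyme of macrophages and neutrophils, was the myeloid gene in this group, at 1759, 8367 and 11557.

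The epithelial list had the highest median level of the 30 gene lists examined, at 7559.8 over its 4 measured members. Itga6, the laminin-binding integrin alpha 6 of basal mammary epithelium, measured 14911, 11303 and 10752. Epcam, the epithelial cell adhesion molecule, measured 13538, 8799.8 and 6724. Cdh1, which encodes E-cadherin, measured 7677, 4624 and 3997. All 3 were above 1000 in every tumor. Muc1, an apical membrane mucin, was moderate at 284, 278 and 81. Each of the 4 was highest in tumor 1269 as deposited, and under the other scalings described below 2 to 4 of them were. Of all 426 genes with a mean of at least 100, 154 were as deposited, and 106 to 265 under those scalings. Keratin genes were not analysed here, so the label of mammary carcinoma was checked on these markers only.

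Fibroblast and matrix genes followed, with a median of 3057 (1823 without tumor 1529), and were uneven. Col1a1, the main chain of type I collagen, measured 7802 in tumor 1269, 44394 in tumor 1529 and 30532 in tumor 1536, lowest in tumor 1269 and highest in tumor 1529. The type III collagen gene Col3a1 measured 4991, 19274 and 11093, fibronectin Fn1 measured 2658, 18645 and 10601 and basement membrane collagen Col4a1 measured 1988, 8794 and 3396. Markers of the fibroblast surface were lower: Thy1 measured 650.1, 2257 and 1257, Pdgfrb measured 164, 443 and 247 and the fibroblast activation protein Fap measured 141, 425 and 176. All 8 members were lowest in tumor 1269 under each of the scalings tried, whereas tumor 1529 was highest for all 8 as deposited and for 3 of 8 when tumors were scaled to the same median. For comparison, among all 426 genes with a mean of at least 100 tumor 1269 was lowest for 179 as deposited. Tumor 1529 was highest for 240 of them as deposited and for 62 with the same median.

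Vascular genes lay mostly in the upper part of the ranking, with a median of 632 (323 without tumor 1529). Among the 17 measured, 5 were abundant, 10 moderate and 2 low. Thbs1, the matricellular protein thrombospondin 1 of platelets, endothelium and stroma, led with 3169.8, 6363 and 4848, followed by the adhesion molecule Mcam with 1295, 3286 and 1584. Pecam1, the junctional protein CD31, measured 346, 2359 and 500.1. Endothelial cadherin Cdh5 measured 179, 1643 and 468, von Willebrand factor Vwf measured 104, 1189 and 100.4 and the angiopoietin receptor Tek measured 35.5, 693 and 121. Of all 426 genes with a mean of at least 100, tumor 1529 was highest for 240 as deposited and for 62 with tumors scaled to the same median. Among the 15 vascular members at that level it was the high sample for 14, and for 12 to 14 under the other scalings. The exception was Vegfa, the growth factor that drives vessel growth and is made by hypoxic tumor cells, at 2518, 1280.1 and 957. Sele, which activated endothelium displays to capture leukocytes, was the lowest member at 3.41, 49.1 and 9.01.

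General leukocyte genes sat in the middle of the panel. Ptprc, which encodes CD45, measured 152, 509.9 and 285. The beta 2 integrin chain Itgb2 (147, 477 and 378) and the P-selectin ligand Selplg (154, 236 and 206) were moderate too. Lcp1, the actin-bundling protein L-plastin that many carcinomas also express, was the only abundant member at 1077, 1473 and 1146. The remaining members were Cd37 at 44.3, 299 and 85.2, Cd48 at 53.9, 155 and 109, Itgal, the alpha chain of LFA-1, at 73.7, 72.8 and 68.6, and Cd53 at 20.5, 46.1 and 29.1. The 6 members with a mean of at least 100 were highest in tumor 1529 as deposited, as were 240 of all 426 genes at that level. With tumors scaled to the same median only 1 of the 6 was, and 62 of the 426.

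Macrophage and monocyte genes had the highest median among the leukocyte lists. Of 22 genes measured, 6 were abundant, 13 moderate and 3 low, with a median of 367. After Lyz2 came Apoe, a lipid carrier made by macrophages and other cells, at 2667, 11424 and 5308, and the complement genes C1qb at 1295, 2837 and 2192 and C1qa at 1255, 2571 and 1869, which tissue macrophages make. Csf1r, the receptor for the macrophage growth factor, measured 561, 1912 and 1388. The fractalkine receptor Cx3cr1 measured 323, 1039 and 1067, and Emr1, the gene of the macrophage antigen F4/80, measured 289.9, 503 and 318. Tumor 1269 was the low sample for 17 of the 19 members with a mean of at least 100, and for 12 to 17 under the other scalings. As deposited it was lowest for 179 of all 426 genes at that level.

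Genes used to describe macrophage states differed from each other. The mannose receptor Mrc1 varied most, with 70.3 in tumor 1269, 1473 in tumor 1529 and 759 in tumor 1536, although with tumors scaled to the same median tumor 1536 was its highest. The scavenger receptor Cd163 measured 70.9, 455 and 92.8, highest in tumor 1529 under each scaling. The endotoxin co-receptor Cd14 was highest in tumor 1269 under each, at 2106, 1338 and 1132. Nos2, which makes nitric oxide from arginine, was low at 21.8, 59.5 and 20.8, and the scavenger receptor Marco was the lowest member at 8.87, 11.9 and 22.2.

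**Figure D2:**
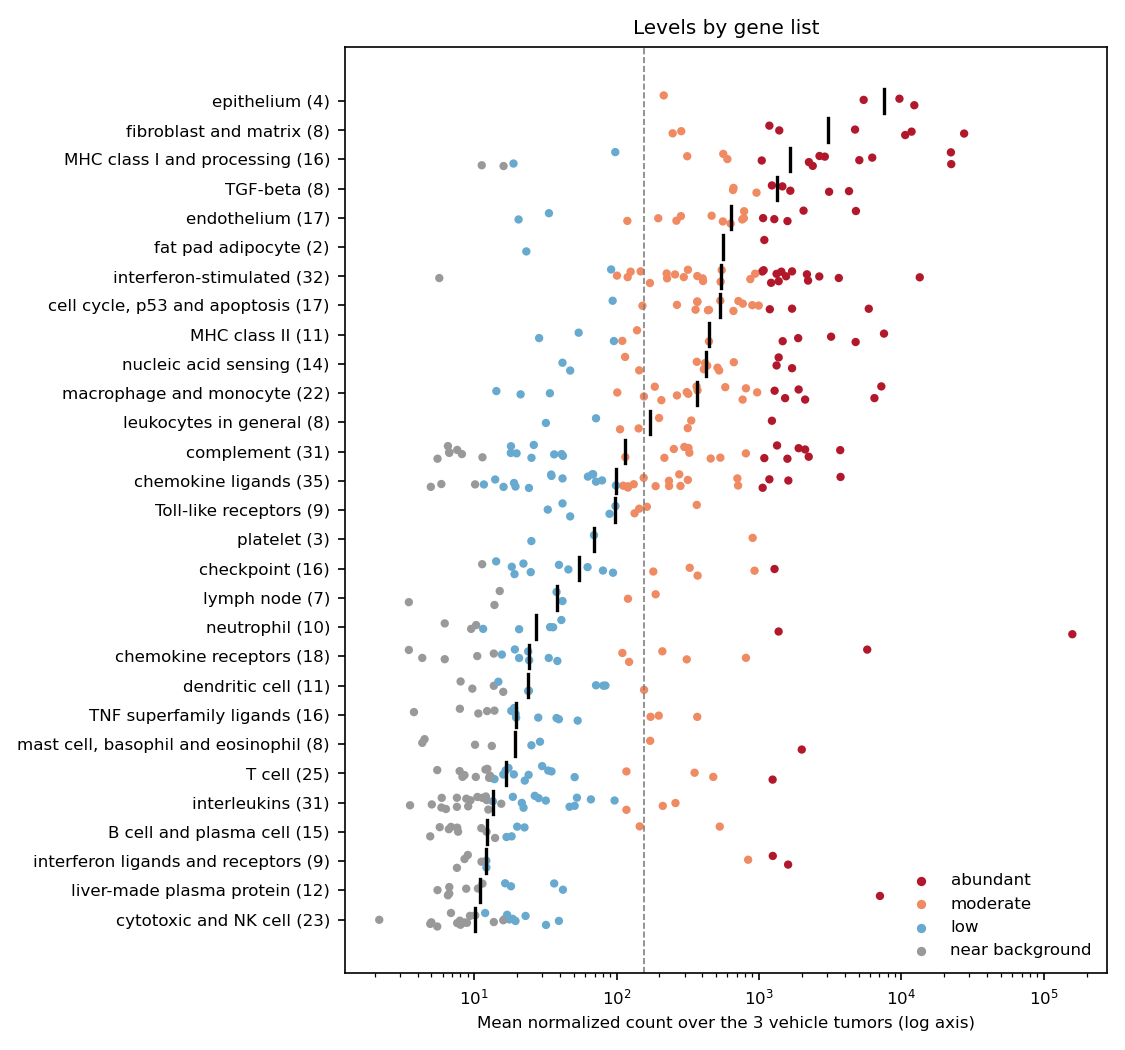
Mean normalized count over the 3 vehicle tumors (log axis) of each measured member of the gene lists, with the number of members in parentheses; points are genes colored by level class, black bars are list medians, and the dashed line is the median of all 750 genes. Epithelial, matrix and MHC class I lists lay to the right of the dashed line, and T cell, B cell, cytotoxic, interleukin and interferon ligand lists lay to the left.

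Most lymphocyte genes lay toward the bottom of the ranking. The 4 chains of the T cell receptor complex, Cd3d, Cd3e, Cd3g and Cd247, summed to 83.9, 135 and 60.3, which rests on 123, 91 and 87 recovered counts. The co-receptor Cd4 measured 30.01, 49.1 and 25.6, while the CD8 chain genes Cd8a (6.82, 11.9 and 6.93) and Cd8b1 (2.05, 8.92 and 5.54) were near background. Foxp3, the factor of regulatory T cells, measured 4.09, 22.3 and 11.8. Of the 25 T cell genes, 9 were near background and 12 low. Among the 4 at a mean of at least 100 were Gata3 (1065, 1858 and 815), Tcf7 (167, 306 and 585) and Lck (131, 128 and 92.8), of which Gata3 is also the luminal factor of mammary epithelium.

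Among 23 genes of cytotoxic and NK cells, 14 were near background and 9 low. The highest were the NK receptor chain Klrd1 at 22.5, 69.9 and 25.6, the cathepsin Ctsw at 17.7, 58 and 20.1 and Klra4 at 11.6, 26.8 and 30.5. Granzyme B (Gzmb) measured 6.14, 8.92 and 5.54, perforin (Prf1) measured 3.41, 7.43 and 4.16 and interferon gamma (Ifng) measured 6.14, 11.9 and 7.62, each within 20 counts. The B cell list was also low: 9 of 15 members were near background, such as the B cell receptor chain Cd79a (4.09, 14.9 and 4.16). Its moderate members were the adaptor Blnk at 783, 473 and 335 and the Toll-like receptor homolog Cd180 at 128, 152 and 157. Both are also found outside the B lineage, and without them the list summed to 85.9, 241 and 137.

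Dendritic cell genes were mostly low as well. The highest was Irf8, a factor of conventional dendritic cells that macrophages also use, at 87.3, 216 and 165, followed by the maturation antigen Cd83 at 50.5, 128 and 72 and the integrin Itgax (CD11c) at 83.9, 95.1 and 63. Xcr1, a receptor of cross-presenting dendritic cells, measured 13, 17.8 and 10.4, and Lamp3 measured 5.46, 8.92 and 9.7, both near background.

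The abundant genes of the granulocyte lists were ones that epithelium also expresses. Without Lcn2, the neutrophil list summed to 1252, 1121 and 2254, with the largest part from S100a8, a calcium-binding protein of neutrophils and stressed epithelium, at 1106, 909.9 and 2104. The granule genes Mpo (8.87, 8.92 and 13.2), Elane (4.09, 13.4 and 11.1), Camp (6.14, 11.9 and 16.6) and Ltf (50.5, 38.7 and 13.2) and the receptors Csf3r (17.7, 58 and 47.1) and Cxcr2 (12.3, 28.2 and 21.5) were low or near background. Kit, the stem cell factor receptor of mast cells and of luminal progenitor cells, was abundant at 3618, 1845 and 526. Its highest tumor was 1269, whereas the mast cell protease genes Cma1 (11.6, 462 and 42.3) and Tpsab1 (10.9, 58 and 18) and the IgE receptor chain Fcer1a (13.6, 46.1 and 15.9) were highest in tumor 1529. Ms4a2, the beta chain of that receptor, was near background at 8.19, 17.8 and 13.9, and so were the eosinophil genes Prg2, Il5ra and Ccr3.

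Genes of MHC class I presentation were among the most abundant and set tumor 1269 apart. The class I heavy chain gene H2-K1 measured 46028 in tumor 1269, 13814 in tumor 1529 and 6941 in tumor 1536, a 6.63-fold range. H2-D1 measured 39408, 17686 and 10074, the nonclassical H2-T23 measured 10881, 5082 and 2754 and the peptide transporter Tap1 measured 5319, 1829 and 835. The immunoproteasome subunits Psmb8 (7068, 4331 and 3793) and Psmb9 (1652, 850.4 and 634) and the class I transactivator Nlrc5 (1049, 447 and 303) also had their highest value in tumor 1269. The remaining immunoproteasome subunit Psmb10 (mean 313) and the transporter partner Tap2 (mean 561) were instead highest in tumor 1529 as deposited, and their highest tumor changed with the scaling. The constitutive proteasome subunits Psmb7 (3414, 2657 and 2626) and Psmd7 (1939, 2443 and 2342) differed little as deposited. Of the 12 members with a mean of at least 100, 9 were highest in tumor 1269, and 8 to 11 under the other scalings. Among all 426 genes at that level 154 were as deposited, and 106 to 265 under the other scalings. Tumor 1536 was lowest for 11 of the 12 as deposited, against 217 of the 426. With tumors scaled to the same median tumor 1529 was lowest for 9 and tumor 1536 for 3. The lowest members, H2-Q1 and H2-Q10, were near background.

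Of 11 measured genes of the MHC class II list, 5 were abundant, 3 moderate and 3 low. The invariant chain Cd74 measured 6695, 9698 and 6254, and the class II chain genes followed it in the order H2-Aa (4678, 6164 and 3474), H2-Ab1 (2830.1, 4447 and 2346) and H2-Eb1 (844, 2348 and 1207). The protease Ctss, which trims the invariant chain, was near level as deposited, at 1971, 2101 and 1579. Among the peptide loading genes, H2-DMa measured 416, 544 and 375, H2-DMb1 measured 66.2, 122 and 99.1, H2-DMb2 measured 106, 126 and 97 and H2-Ob measured 23.2, 43.1 and 19.4. Ciita, the master regulator of the class, was moderate at 88, 198 and 132, and H2-Ea-ps was low at 25.9, 92.2 and 44.3. None of the 8 members with a mean of at least 100 reached a 4-fold range, as 22.8% of all 426 genes at that level did, and 8 genes are few beside that share. Their order flipped with scaling. As deposited all 8 were highest in tumor 1529 (240 of the 426). With tumors scaled to the same median 6 of 8 were highest in tumor 1269 (265 of the 426).

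Interferon-stimulated genes were widely expressed in the vehicle tumors, and most were highest in tumor 1269. Of 32 measured, 13 were abundant, 17 moderate, 1 low (Gbp5) and 1 near background (Mx1). The 250 bases before the start of 4 of these genes are shown. These 4 were chosen among the members that varied at least 4-fold for having a match to the interferon-stimulated response element. The sequences are from RefSeq (GRCm38.p6), 5′ to 3′ on the strand of the gene, for Ifit3 (chr19:34583279-34583528, plus strand), Ifit1 (chr19:34640639-34640888, plus strand), Isg15 (chr4:156200819-156201068, minus strand) and Oas3 (chr5:120777660-120777909, minus strand), with matches to GAAANNGAAA or its reverse complement TTTCNNTTTC in capitals.
Ifit3: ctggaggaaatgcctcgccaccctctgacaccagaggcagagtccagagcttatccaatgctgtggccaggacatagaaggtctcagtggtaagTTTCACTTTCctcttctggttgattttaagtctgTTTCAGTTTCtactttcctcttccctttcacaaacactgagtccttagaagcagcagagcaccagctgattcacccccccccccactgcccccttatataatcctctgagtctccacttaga
Ifit1: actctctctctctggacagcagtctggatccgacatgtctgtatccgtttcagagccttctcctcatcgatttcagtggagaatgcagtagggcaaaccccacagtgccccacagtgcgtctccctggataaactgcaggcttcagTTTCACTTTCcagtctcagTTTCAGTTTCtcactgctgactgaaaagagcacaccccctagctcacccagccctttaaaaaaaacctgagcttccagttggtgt
Isg15: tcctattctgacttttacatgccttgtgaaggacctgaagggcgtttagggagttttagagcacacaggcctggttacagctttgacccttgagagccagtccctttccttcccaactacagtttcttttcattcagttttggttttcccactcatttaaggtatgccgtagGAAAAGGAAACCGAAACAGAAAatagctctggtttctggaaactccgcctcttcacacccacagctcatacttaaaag
Oas3: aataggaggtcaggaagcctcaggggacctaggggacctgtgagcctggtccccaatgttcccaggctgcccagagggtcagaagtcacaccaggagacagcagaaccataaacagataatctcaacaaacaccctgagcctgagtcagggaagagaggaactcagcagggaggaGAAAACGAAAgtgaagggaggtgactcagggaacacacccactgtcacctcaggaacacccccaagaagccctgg
In Isg15 the 3 matches overlap, and start between positions -78 and -66 relative to the start of the gene. Ifit3 and Ifit1 have 2 each, and Oas3 has 1, at position -75.

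The motif was searched on both strands of all promoters of that length. It was in 12 of 25 interferon-stimulated genes that had a promoter sequence (48%), against 6.60% of the other panel genes, 3.46% of all 27025 genes with a sequence and 2.98% of all 32851 promoter sequences. Within the list, it was in 7 of 13 genes called as varying at least 4-fold between the tumors (53.8%) and in 5 of the 12 others (41.7%). The others include Gbp5, which has a match but a mean under 100, so the 4-fold rule was not applied to it. A match is a description of the letters in the window, and draws nothing about binding.

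The levels of these 4 genes were as follows. Ifit3, which binds foreign RNA with its relatives, measured 5592 in tumor 1269, 1739 in tumor 1529 and 622 in tumor 1536. Ifit1, which recognizes viral RNA caps, measured 1964, 499.5 and 143, a 13.7-fold range. Isg15, a ubiquitin-like modifier, measured 1909.9, 852 and 472. Oas3, which senses double-stranded RNA, measured 362, 112 and 41.6. In all 4 tumor 1269 was highest under each scaling, and tumor 1536 was lowest as deposited (for Isg15 not under every scaling).

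The widest range in the list was that of Oas2, another RNA-sensing synthetase, with 3401, 1018 and 227 (15-fold). Irf7, which amplifies type I interferon production, measured 2201, 763 and 201 (11-fold). The signal carrier Stat2 (911, 523 and 208) had the same order of tumors as deposited. So did the membrane tether Bst2 (3681, 1940.1 and 892), the cytoplasmic Ifi44 (4140.5, 1885 and 606) and Usp18, which dampens receptor signaling (593, 224 and 72). A range of at least 4-fold was found in 16 of the 30 members with a mean of at least 100, where 22.8% of all genes at that level (97 of 426) had one. As deposited 26 of the 30 were highest in tumor 1269, against 154 of all 426 genes at that level. Under the other scalings 23 to 29 of the 30 were. The 29 arose with tumors scaled to the same median, where 265 of the 426 were highest in tumor 1269. The lowest tumor depended on the scale. It was tumor 1536 for 27 of the 30 as deposited, against 217 of the 426. With tumors scaled to the same median it was tumor 1536 for 15 and tumor 1529 for 14.

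Some members of the same list were more even as deposited. Ifitm2, the most abundant, measured 14453, 14625 and 11275, Ifi27 measured 4340.3, 4269.8 and 2294, Irf1 measured 1403, 1313 and 932 and Isg20 measured 402, 391 and 312. Ifitm1 ran the other way, at 55.9, 164 and 82.4. Epithelial markers were also highest in tumor 1269 and the matrix and macrophage lists lowest there, as given above, and their part in the interferon-stimulated levels was not tested.

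**Figure D3:**
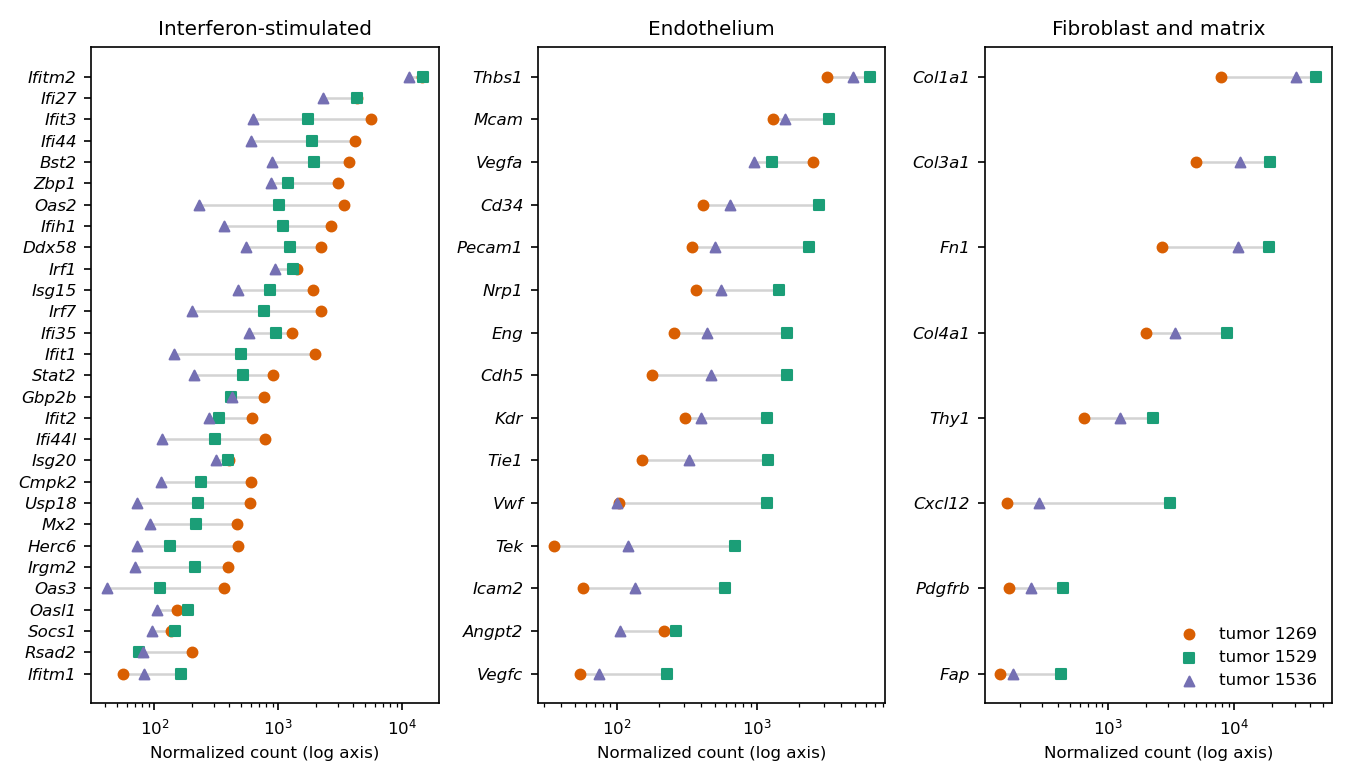
Normalized count (log axis) in each vehicle tumor of the members of 3 lists with a mean of at least 100, ordered by mean; gray lines join the lowest and highest tumor, and 1 interferon-stimulated gene is not drawn. In the left list tumor 1269 is the highest for 26 of 30 genes (23 to 29 under other scalings), in the middle panel tumor 1529 for 14 of 15 (12 to 14), and in the right panel tumor 1269 is the lowest for all 8 under each scaling. Of all 426 genes at that level, as deposited, tumor 1269 is highest for 154 and lowest for 179, and tumor 1529 is highest for 240.

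The interferons themselves were hardly measured. The panel's interferon ligands were Ifnb1 (13.6, 10.4 and 9.7), Ifna1 (5.46, 11.9 and 9.7), Ifna2 (5.46, 8.92 and 8.31), Ifna4 (9.55, 8.92 and 18), and Ifnl2 (18.4, 11.9 and 6.23), with Ifng as given above. These are 6 of the 9 members of that list, and 4 of them were near background. Their receptors were well measured: these were Ifngr1 (1518, 2099 and 1186), Ifnar1 (1175, 1508 and 1067) and Ifnar2 (1098, 869.7 and 549). Ligands and receptors thus lay far apart in the ranking. Of the sensors upstream, Zbp1 (3039, 1199.8 and 880.5), Ifih1 (2673, 1085 and 366) and Ddx58, the gene of RIG-I (2188, 1250.3 and 548), are themselves induced by interferon and are among the members of the interferon-stimulated list counted above. Tmem173, the gene of STING, was moderate at 498, 544 and 533, a 1.09-fold range as deposited and 2.04-fold with tumors scaled to the same median. Also moderate were the kinase Tbk1 at 439, 509.9 and 348 and the adaptor Mavs at 473, 636 and 425. Among Toll-like receptors, Tlr3 was the highest at 572, 312 and 213 and Tlr6 the lowest at 28.6, 40.1 and 29.8, while Tlr8 varied most, with 45, 223 and 164.

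Chemokine genes were the most uneven of the ligand families. Of 35 measured, 4 were abundant, 13 moderate, 15 low and 3 near background. Cxcl14, made by epithelium and fibroblasts, measured 336 in tumor 1269, 7854 in tumor 1529 and 3027 in tumor 1536. The monocyte attractant Ccl8 measured 143, 4088 and 590.2 and Cxcl12, a fibroblast product that retains CXCR4-bearing cells, measured 159.6, 3101 and 287. All 3 were highest in tumor 1529 and lowest in tumor 1269 under each scaling. Ccl5, which attracts T cells and is induced by interferon, went the other way at 207, 75.8 and 51.3, as did Ccl20 at 339.7, 78.8 and 46.4, while Cxcl10 was nearly level as deposited, at 162, 112 and 123. Cxcl9, the related ligand of CXCR3, was low at 80.5, 81.8 and 26.3. The lowest ligand was Ccl26, at 4.77, 5.95 and 4.16.

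Receptors for these ligands were mostly low. Cxcr4 stood alone as abundant, at 9894, 4335 and 3035. The myeloid receptors Cx3cr1, given above, and Ccr2 (63.4, 476 and 393) were moderate and lowest in tumor 1269. Cxcr3 of effector T cells measured 25.9, 68.4 and 20.8, and Cxcr5 of B cells and follicular helper T cells measured 4.09, 1.49 and 4.85. Of 31 interleukin genes and receptors caught by that family name, 16 were near background, and those at a mean of at least 100 were Il34, another ligand of the CSF1 receptor (331, 238 and 209), Il18 (237, 245 and 151) and Il17b (112, 113 and 127). Il10 measured 6.82, 5.95 and 6.23, Il6 measured 8.87, 34.2 and 23.6 and Il2 measured 4.77, 7.43 and 5.54. In the TNF superfamily the highest ligand was Tnfsf10, the apoptosis inducer TRAIL, at 570.3, 388 and 147, then Tnfsf12 at 156, 282 and 154 and Tnfsf13 at 196, 189 and 135, with Cd70 lowest at 4.09, 4.46 and 2.77.

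Checkpoint genes ranged from abundant to near background. The highest was Cd47, which restrains phagocytosis, at 1434, 1268 and 1155. Cd276, the gene of B7-H3, measured 934, 993 and 863, and Tnfrsf14 measured 269, 607 and 236. Cd274, which encodes PD-L1, was moderate at 287 in tumor 1269, 137 in tumor 1529 and 119 in tumor 1536. The ATP-degrading enzyme Entpd1 measured 88, 726 and 165 and its partner Nt5e measured 25.9, 144 and 113. Receptors of T cells were low or near background: this held for Pdcd1, the gene of PD-1 (19.8, 35.7 and 19.4), Ctla4 (17.1, 34.2 and 15.2), Lag3 (58.7, 93.7 and 35.3), Tigit (11.6, 28.2 and 15.2), Btla (15.7, 69.9 and 32.6) and Havcr2, the gene of TIM-3 (8.87, 14.9 and 10.4). The co-stimulatory ligands Cd86 (55.9, 117 and 67.2) and Cd80 (15, 80.3 and 42.3) were low, and so were Ido1, which breaks down tryptophan (4.09, 43.1 and 10.4), and Pdcd1lg2, the gene of PD-L2 (6.82, 19.3 and 16.6).

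Complement genes spanned the whole ranking. The initiating genes C1qa and C1qb were given above. C3, the central component, measured 2413, 2846 and 1445, and C1qbp, a mitochondrial protein named for binding C1q, measured 3904, 2744 and 4505. C4b was far higher in tumor 1529 than in the others, with 207, 4210.3 and 332, as were the inhibitors Serping1 (400.4, 2996 and 620.0) and Cd55 (8.19, 305 and 32.6). The terminal components C8a, C8b and C9 were near background. Of 12 genes for plasma proteins made mainly by liver, Lbp, which binds endotoxin, was the only abundant one, at 9793, 6272 and 5144, and 7 were near background, C8b at 5.46, 4.46 and 9.7 among them.

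All 8 TGF-beta genes were at least moderate, with the receptor Tgfbr2 at 6236, 4451 and 2168, the ligand Tgfb2 at 4183, 2562 and 2575 and Tgfb1 at 1314, 1606 and 1457, and none reached a 4-fold range. Of the 16 genes of cell cycle, p53 and apoptosis with a mean of at least 100, none did either. Such a range was found in 22.8% of all 426 genes at that level, and with 8 genes its absence says little beside that share. Birc5, the mitotic survivin gene, measured 1195, 1701 and 2223, the RNA-binding Ewsr1 measured 6341, 6293 and 5062 and the p53 target Cdkn1a measured 671, 727 and 586. Trp53 measured 432, 1114 and 603; the place of its probe relative to the deleted exons is not given in the sources used here, and the stroma keeps the gene, so this value does not check the deletion. Usp9y, a Y-linked gene, was near background at 4.77, 5.95 and 4.85 in these tumors grown in females.

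**Figure D4:**
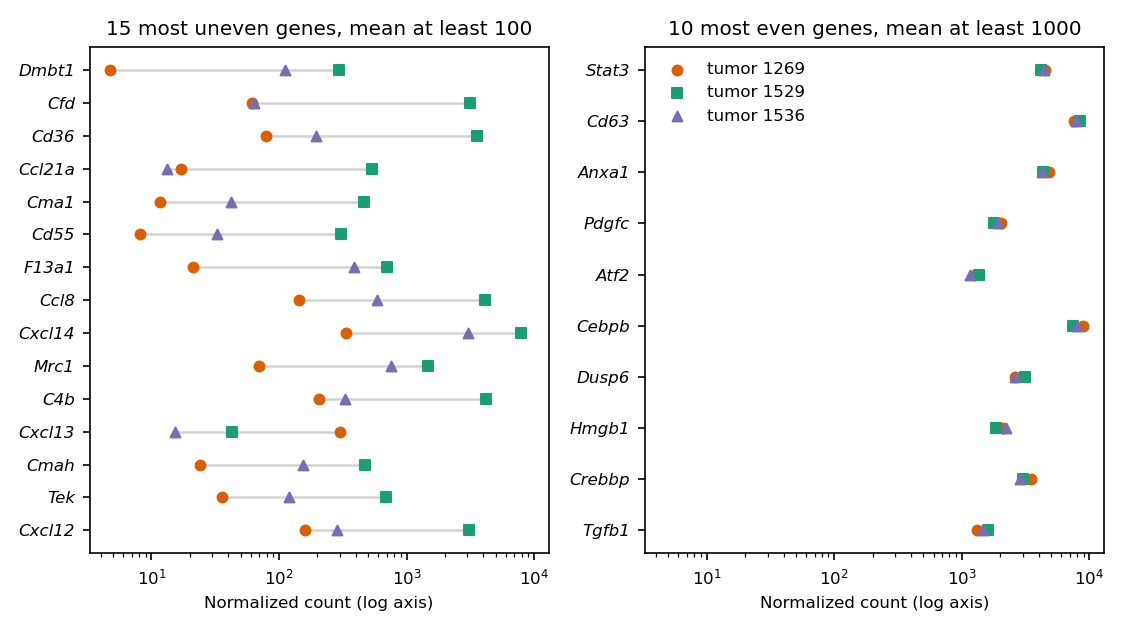
Normalized count (log axis) in each vehicle tumor of the 15 genes with the largest highest-over-lowest ratio among those with a mean of at least 100 (left) and the 10 genes with the smallest among those with a mean of at least 1000 (right). On the left 14 of the 15 genes are highest in tumor 1529 as deposited (12 with tumors scaled to the same median, where F13a1 and Mrc1 are highest in tumor 1536) and Cxcl13 in tumor 1269, and on the right the 3 tumors nearly coincide as deposited (1.82- to 2.67-fold ranges with tumors scaled to the same median).

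Among the 426 genes with a mean of at least 100, the median ratio of highest to lowest tumor was 2.16, 231 genes reached 2-fold, 97 (22.8%) 4-fold and 35 8-fold. Counting error was small beside this: exact Poisson 95% intervals of the highest and lowest tumor lay apart for all 97 and for 412 of the 426 genes. Abundant genes varied in 28 of 160 cases (17.5%) and moderate genes in 69 of 266 (25.9%). By list, which can share genes, 4-fold ranges were found in 9 of 15 endothelial genes at that level (60%), 9 of 16 complement (56.25%) and 16 of 30 interferon-stimulated (53.3%). They were also found in 9 of 17 chemokine ligand (52.9%), 4 of 8 matrix (50%) and 7 of 19 macrophage genes (36.8%). Below the 22.8% of all genes were MHC class I and nucleic acid sensing, with 2 of 12 each (16.7%). No epithelial, T cell, MHC class II, TGF-beta or cell cycle list gene varied. Of the 97, 37 were in no list.

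Dmbt1, an epithelial and secreted mucosal defense protein, had the widest range, with 4.77 in tumor 1269, 293 in tumor 1529 and 111 in tumor 1536. Its lowest value is 7 recovered counts, within the background limit, so the size of the ratio is uncertain (61.3 as deposited, 27.6 with tumors scaled to the same median and 421 with background subtracted). Ccl21a, Cma1 and Cd55 also had a lowest tumor within 20 recovered counts, which makes 4 of the 15. Next came Cfd, the adipocyte protease adipsin, with 61.4, 3144 and 63.7, and the fatty acid receptor Cd36 of adipocytes, endothelium and macrophages, with 79.1, 3590.4 and 195. Pparg, the regulator of fat cell formation and the other fat pad gene measured, was likewise highest in tumor 1529, at 3.41, 58 and 8.31. The lymphatic and lymph node chemokine Ccl21a was far higher in that tumor than in the others, with 17.1, 534 and 13.2, and Ccl19, which shares its receptor, measured 6.82, 110.0 and 8.31. Cxcl13, the attractant of B cells, was instead high in tumor 1269, at 302, 43.1 and 15.2.

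The other lymph node genes were low in every tumor, with Glycam1 at 8.87, 26.8 and 9.7, Ltb at 35.5, 49.1 and 29.1 and Lta at 10.9, 23.8 and 6.93. The rest of the 15 most uneven genes were the mast cell protease Cma1, Cd55, the clotting factor and macrophage gene F13a1 (21.1, 705 and 387), Ccl8, Cxcl14, Mrc1, C4b, the sialic acid hydroxylase Cmah (23.9, 471 and 153), Tek and Cxcl12, all described with their values above or here. Summed over lists, adipocyte genes were 64.8, 3202 and 72, endothelial genes 9489, 26267 and 11293, matrix genes 18554, 97333 and 57589.5 and lymph node genes 385, 788 and 87.3. All 4 sums were highest in tumor 1529 as deposited. With tumors scaled to the same median the adipocyte and endothelial sums were still highest there, but the matrix sum was highest in tumor 1536 (27034, 63712 and 73272) and the lymph node sum in tumor 1269 (562, 516 and 111). The part of the fat pad and lymph node genes in the ranges of the other lists was not tested.

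Evenness depended on the scale, and the 10 most even abundant genes were chosen on the deposited one. Stat3, a signal carrier of interleukin 6 type cytokines, measured 4477, 4167 and 4369.7 and led with a 1.07-fold range. It was followed by Cd63, Anxa1, Pdgfc, Atf2, Cebpb, Dusp6, Hmgb1, Crebbp and Tgfb1, the last of which ranged 1.22-fold. With tumors scaled to the same median, Stat3 ranged 2.39-fold and the 10 genes 1.82- to 2.67-fold.

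By tumor, the 97 varying genes divided unequally. Tumor 1529 was highest for 66 of them (15.5% of 426), tumor 1269 for 28 (6.57%) and tumor 1536 for 3 (0.704%), namely Lyz2, the C-type lectin Clec4n (104, 312 and 428) and the prostaglandin enzyme Ptgs2 (30.7, 222 and 303). Tumor 1269 was lowest for 65 (15.3%), tumor 1536 for 32 (7.51%) and tumor 1529 for none (0%). Most often, in 62 genes, tumor 1529 was highest and 1269 lowest, and in 28 genes tumor 1269 was highest and 1536 lowest.

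This split depended on the scale. As deposited, the genes with a mean of at least 100 had median log2 deviations from their own geometric mean of -0.02, 0.29 and -0.24 in the 3 tumors, so that tumor 1529 ran high in general. With each tumor scaled to the same median over all 750 genes the deviations were 0.43, -0.42 and 0.01, and 84 genes varied, 55 of them among the 97, with 56 highest in tumor 1269, 21 in tumor 1529 and 7 in tumor 1536. Scaled to the same total of recovered counts, 103 varied, 85 of them shared, divided 17, 71 and 15. With Lcn2 left out of that total, 97 varied, 85 shared, divided 17, 64 and 16.

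Several lists stood apart from this general deviation. The endothelial median was 1.53 on the log2 scale in tumor 1529, and the matrix and macrophage medians were -1.0 and -1.02 in tumor 1269. The interferon-stimulated median was 1.02 in tumor 1269 and -1.06 in tumor 1536, and the MHC class I median 0.67 and -0.69; as given above, with tumors scaled to the same median tumor 1536 was no longer lowest for most members of either list. Each of these medians lay farther from 0 than that of all 426 genes in the same tumor as deposited. The spread rests on 3 tumors, and no test was made.

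**Figure D5:**
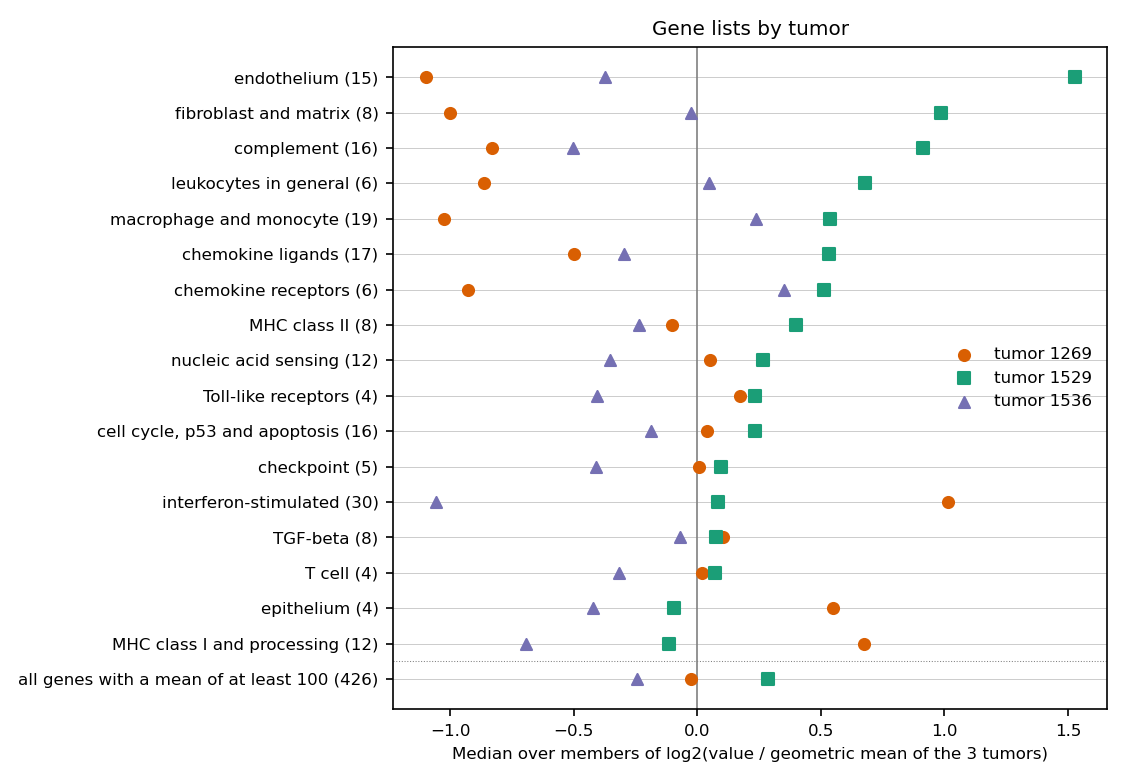
Median over list members with a mean of at least 100 of the log2 ratio of a tumor's value to the geometric mean of the 3 tumors, for each list with at least 4 such members (number in parentheses), with all 426 genes in the bottom row. Tumor 1529 stands to the right for endothelium and matrix (5 of 8 matrix genes are highest in tumor 1536 with tumors scaled to the same median) and tumor 1269 for interferon-stimulated and MHC class I genes; in MHC class II and general leukocytes the order of tumors changes with the scaling.

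The order of genes in the vehicle tumors was largely shared by the treated tumors. Across the 750 genes Spearman's correlation of the vehicle mean with the group mean was 0.974 for ADU-S100, 0.953 for olaparib and 0.964 for the combination. Of the 25 highest vehicle genes, 22, 18 and 19 were also among the 25 highest there. Of the 160 abundant genes, 152, 151 and 142 were abundant, and of the 124 near background, 116, 112 and 87 were within 20 counts there too. That limit depends on depth, and the recovered totals were 372390 to 683982 for ADU-S100, 106206 to 1392128 for olaparib and 1339258 to 1491854 for the combination. Genes that varied 4-fold among the vehicle tumors did so among the ADU-S100 tumors in 48 of 97 cases (49.5%, against 15.5% of the 426), among the olaparib tumors in 71 (73.2%, against 41.1%) and among the combination tumors in 7 (7.22%, against 1.88%). The part of depth in these counts was not tested.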

How the data were processed

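RNA of 12 tumors was measured by nCounter, and tumors were assigned to groups from their titles. The authors processed the counts with nSolver 4.0 (quality control, background correction, and normalization to positive controls and to the geometric mean over housekeeping genes) and deposited a linear signal for 750 genes. Raw counts below the negative controls were stated to be discarded. Control and housekeeping probes were not analysed here, so none of these steps was repeated. The count behind each value was recovered from the tumor's smallest common step, with a tolerance of 0.01 of a count: 746 of 747 values above the floor of 1 were whole in tumor 1269, 750 of 750 in tumor 1529 and 747 of 748 in tumor 1536. The recovery was tested on simulated data. Totals of 632152 to 1519471 counts set the precision, and intervals cover counting error only. No test between groups was made, since 3 tumors of 1 group were described.

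The members and the 30 gene lists were chosen with earlier results of these data known. Named by rule were the 25 highest genes, the 15 most uneven and 10 most even genes, the 3 highest, the lowest and the most uneven member of each list, all members of 8 short lists, and genes at the floor. Other genes were chosen after their values were seen, and some named by the rule are not reported here. Of the symbols, 736 were current in RefSeq (GRCm38.p6), 8 older and 6 not matched. Alternatives were other limits, scalings, averages and leaving out each tumor. Computation used Python 3.11.15, pandas 2.3.3, numpy 2.4.6, scipy 1.17.1 and matplotlib 3.10.9.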

Additional observations from a re-analysis of the deposited data

How the results depend on the processing

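With a background limit of 10 counts in place of 20, 42 genes were near background, and with 50 counts 226 were, leaving 98 low. Genes varied at least 2-fold in 231 cases and at least 8-fold in 35. Without 1 tumor at a time, 26 to 71 genes varied 4-fold: 26 without tumor 1269, 38 without tumor 1529 and 71 without tumor 1536, a smaller count by construction since fewer tumors enter the range. The classes then held 143 to 169 abundant, 248 to 282 moderate, 173 to 218 low and 141 to 145 near background genes. Of the list contrasts, added after seeing the data, the log2 median of a tumor minus that of the other tumors was 1.01 for MHC class I in tumor 1269 as deposited and 1.69 with tumors scaled to the same median, 1.37 and 0.31 for complement in tumor 1529, and 0.83 and 1.5 for epithelium in tumor 1269, 2.29 and 1.23 for endothelium in tumor 1529, -1.5 and -0.83 for matrix in tumor 1269 and -1.54 and -0.86 for macrophages in tumor 1269. The correlation of the vehicle ranking was 0.927 to 0.958 with olaparib and 0.943 to 0.974 with the combination when 1 vehicle tumor was left out. The total without Lcn2 was also a scaling chosen after seeing the data. The limit for a move was 1.5-fold for a count and 1 SD between the tumors for other values, a wide limit where tumors differ much, so the endothelial, matrix and macrophage contrasts lay within it. In 91 recomputations of these results the value moved by no more than that, and in 12 it moved further. Of the recomputations of single lists and splits, 213 stayed within the limit and 30 moved further. Within that limit, leaving out 1 tumor still lowered some list medians by over 1.5 times: without tumor 1529 from 557 to 34.2 for fat pad and from 115 to 39.1 for complement, and without tumor 1269 from 542 to 359 for interferon-stimulated genes. The MHC class I median fell from 1643 to 1037 without tumor 1269. No list contrast changed sign, but with tumors scaled to the same median the varying genes were most often highest in tumor 1269 (56, against 21 in tumor 1529) in place of tumor 1529 (66, against 28), and the order of MHC class II genes turned as given above. No paired analysis was possible because the groups share no tumor numbers. Genes within 20 counts have a depth that cannot show differences between tumors, and the negative controls that would set a background per tumor were not used here.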

Other observations

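Of the 750 genes, 351 were in none of the 30 lists, among them 87 abundant and 37 varying genes. In tumors 1269, 1529 and 1536, the kinase gene Mapk3 measured 2997, 4178 and 2675. Also abundant were the oncogene Myc (3831, 6944 and 4853), the immediate early genes Fos (3339.7, 1374 and 1191) and Egr1 (3386, 1897 and 1830.2), and the receptor kinases Egfr (1332, 1705 and 673) and Erbb2 (1542, 1103 and 626). Fos, Egr1 and Erbb2 were highest in tumor 1269 under each scaling, while the highest tumor of Myc and Egfr changed with it. The galectin gene Lgals3 measured 6987, 3526 and 4885, the inflammasome protease Casp1 measured 4012, 3127 and 2091, and Hif1a, the oxygen-regulated factor, measured 2265, 2682 and 2015. All of these were chosen after their values were seen.

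Some unlisted genes had wide ranges. Lrp1, an endocytic receptor of fibroblasts and macrophages, measured 639, 4584 and 2147, the interleukin 4 receptor chain Il4ra measured 308, 1815 and 883 and the chaperone Clu measured 658, 2993 and 728. The mesenchymal transcription factors Snai1 (60.7, 339 and 213) and Twist1 (32.1, 187 and 97.7) were moderate. All 5 were highest in tumor 1529 and lowest in tumor 1269 as deposited, and under each scaling Lrp1 and Il4ra were. In the other direction, the chitinase Chit1 measured 399, 177 and 36 and the class I-like gene Mill2 measured 253, 165 and 47.1.

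The genes listed at the floor of 1 in a vehicle tumor were Ccl6, Mme, Klra7 and Mpped1. Ccl6, a macrophage chemokine, was at the floor in tumor 1269 and measured 162 and 42.3 in tumors 1529 and 1536. Mme, the gene of neprilysin, was also at the floor in tumor 1269, with 77.3 and 6.23 in the others. Klra7 was at the floor in tumors 1269 and 1536, and Mpped1 in tumor 1536.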
